A study of Mus musculus with 3 samples.

Results

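The 10 genes described here, Syt1, Syt4, Syt5, Syt7, Syt10, Syt11, Syt13, Syt14, Syt16 and Syt17, encode synaptotagmins, and they were taken by name from the 24139 genes that could be given a symbol. The files held 7 further synaptotagmin genes, which are used below for comparison. Polyadenylated RNA was sequenced from fluorescence-sorted cells of the villus fraction of C57BL/6 upper small intestine. The GIP-GFP library came from epithelial cells whose green reporter marks expression of GIP, the incretin hormone of K cells. The Ngn3-TOMATO library came from male mice carrying Ngn3-Cre and a ROSA26 tomato reporter behind a LoxP-flanked stop, so that a cell is red if it or a progenitor expressed Ngn3 (Neurog3), the factor that starts enteroendocrine differentiation. The Ngn3-negative library held the cells without tomato from the same kind of mouse, which the labels give as non-enteroendocrine epithelium. The tomato sorts left out cells stained for the blood cell marker CD45, and no such gate is stated for the GIP-GFP sort. Each library is 1 pool of equal amounts of RNA from individual samples, of unstated number.

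Synaptotagmins are membrane or membrane-bound proteins with a pair of C2 domains, called C2A and C2B. In the classical members these domains bind calcium and then phospholipids and the SNARE proteins, and so couple a rise in calcium to the fusion of vesicles with the cell membrane. Enteroendocrine cells release their hormones from dense core granules by the same machinery. Calcium sensing does not describe the whole set. From textbook knowledge Syt1, Syt5, Syt7 and Syt10 bind calcium, Syt4 and Syt11 carry a substitution in C2A, and Syt13, Syt14 and Syt16 are regarded as calcium-independent. The protein sequences were not analysed here.

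Syt7, Syt13, Syt5 and Syt11 held most of the synaptotagmin RNA in the GIP-GFP and Ngn3-TOMATO libraries, called reporter-positive below, and each was several-fold lower in the Ngn3-negative library. Ngn3-TOMATO was not a pure endocrine pool: 4 goblet cell markers summed to 160400 and 4 Paneth cell markers to 25680 there, beside 23290 for 7 enteroendocrine markers, and the goblet cell genes Zg16 and Tff3 had the highest levels of all its genes. Levels are given as scaled FPKM, the deposited FPKM (a measure per transcript length) summed per gene and divided by the same number in every library. Brackets hold 95% intervals from the deposited FPKM limits, which cover counting and read assignment only. With 1 library a group no replicate check exists, and groups were compared without a test or p-value. Ratios are log2 values after adding a pseudocount of 1 to each level, which understates the difference of low genes, and fewer cells of a type and less RNA per cell cannot be told apart in such pools.

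**Figure D1:**
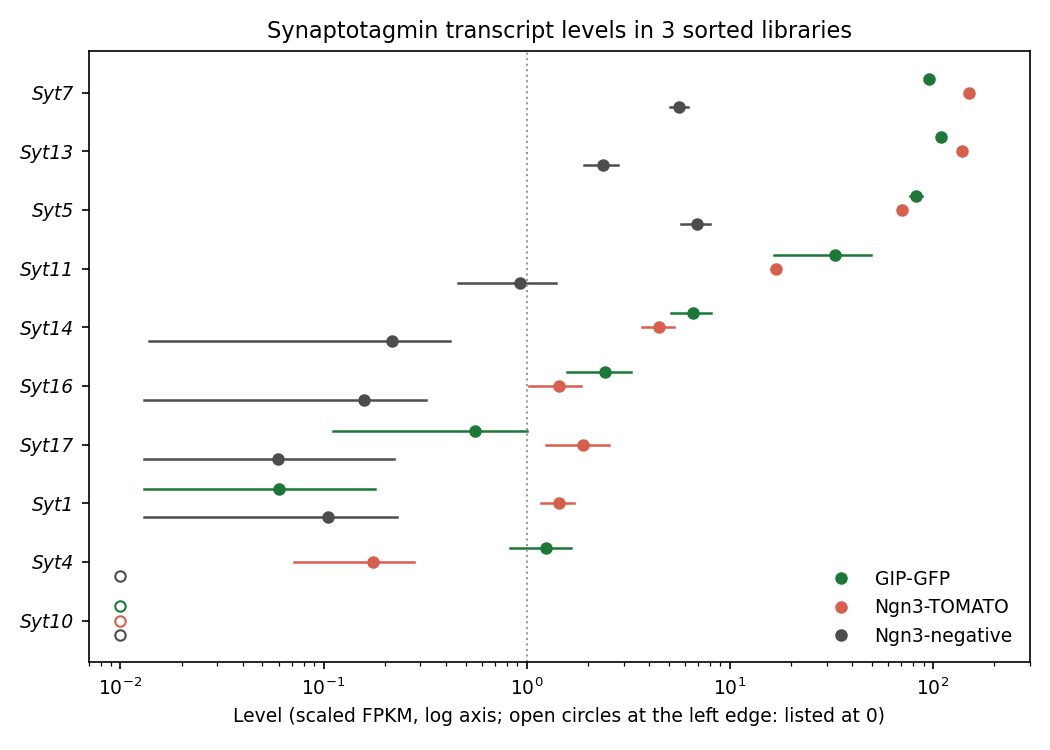
Level of each of the 10 genes (scaled FPKM, log axis) in the GIP-GFP, Ngn3-TOMATO and Ngn3-negative libraries, 1 library each, with 95% counting intervals as bars that are cut at the left where they reach 0. Open circles are values listed at 0 and the dotted line is the filter of 1. Syt7, Syt13, Syt5 and Syt11 lie above 16 in both reporter-positive libraries, and no level exceeds 7 in the Ngn3-negative library.

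Syt7, a high-affinity calcium sensor known for slow exocytosis and for hormone release from pancreatic islet cells, is annotated on the plus strand at chr19:10389090-10453181 (mm10). Its level was 96.0 [92.6 to 99.4] in the GIP-GFP cells, 150.3 [147.6 to 153.0] in the Ngn3-TOMATO cells and 5.65 [5.06 to 6.24] in the Ngn3-negative cells. It was the highest of the 10 in Ngn3-TOMATO, where it ranked 914 among all genes by level, against 1690 in GIP-GFP and 9810 in Ngn3-negative. The log2 ratio to Ngn3-negative was 4.51 [4.38 to 4.64] for Ngn3-TOMATO and 3.87 [3.73 to 4.0] for GIP-GFP. These ratios, like all others against Ngn3-negative, share that library and are not independent of each other. Between the reporter-positive libraries Syt7 was lower in GIP-GFP by a log2 ratio of -0.64 [-0.70 to -0.58]. The model uc008gpq.2 carried 81.6%, 78.6% and 83.3% of its level in the GIP-GFP, Ngn3-TOMATO and Ngn3-negative cells, so the use of its 2 detected models was much alike across the libraries, and the third model was listed at 0.

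Syt5, another calcium-binding member, known from dense core vesicles, lies on the minus strand at chr7:4539765-4546567. Its level was 82.6 [77.1 to 88.1] in the GIP-GFP cells, 70.5 [67.4 to 73.7] in the Ngn3-TOMATO cells and 6.89 [5.76 to 8.02] in the Ngn3-negative cells. The level in GIP-GFP was above that in Ngn3-TOMATO, with a log2 ratio of 0.22 [0.11 to 0.34]. The log2 ratio to Ngn3-negative was 3.18 [2.96 to 3.40] for Ngn3-TOMATO and 3.41 [3.18 to 3.63] for GIP-GFP. In the Ngn3-negative library Syt5 had the highest level of the 10, and its interval overlapped that of Syt7.

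Syt1, the fast calcium sensor of neurotransmitter release, lies on the minus strand at chr10:108497650-109010975 and was scarce in all 3 libraries. Its level was 0.0602 [0 to 0.178] in the GIP-GFP cells, 1.45 [1.18 to 1.71] in the Ngn3-TOMATO cells and 0.105 [0 to 0.230] in the Ngn3-negative cells. The intervals of GIP-GFP and Ngn3-negative overlapped, and Ngn3-TOMATO lay above both. Syt1 was the member with the lowest ratio of GIP-GFP to Ngn3-TOMATO, at a log2 value of -1.21 [-1.43 to -0.98]. These values rest on 0.0786, 4.55 and 0.248 kb of aligned read bases in the same order. A single-exon model inside an intron of Syt1, uc007gzj.2, is annotated as Gm5136 and was not counted as Syt1.

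Syt10, a calcium-binding member known from secretion of a growth factor in olfactory bulb neurons, has 1 model, at chr15:89782393-89841860 on the minus strand, and was listed at 0 in every library. It enters no ratio.

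Syt13, a calcium-independent member known from endocrine progenitors of the pancreas, lies on the plus strand at chr2:92915101-92956051. Its level was 110.1 [106 to 114.3] in the GIP-GFP cells, 139.1 [136.1 to 142.0] in the Ngn3-TOMATO cells and 2.37 [1.93 to 2.82] in the Ngn3-negative cells. It had the highest level of the 10 in GIP-GFP, above Syt7 with no overlap of their intervals, and the second place in Ngn3-TOMATO, also with no overlap. Its ratio to Ngn3-negative was the largest of the set in both comparisons, at a log2 value of 5.38 [5.18 to 5.57] for Ngn3-TOMATO and 5.04 [4.85 to 5.24] for GIP-GFP. On the same scale GIP-GFP was lower than Ngn3-TOMATO by -0.33 [-0.40 to -0.27].

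Syt14 and Syt16, related calcium-independent members, were low. With all models counted, both were higher in the reporter-positive libraries than in Ngn3-negative. Syt14, at chr1:192897307-193035698 on the minus strand, had a level of 6.63 [5.16 to 8.10] in the GIP-GFP cells, 4.51 [3.71 to 5.30] in the Ngn3-TOMATO cells and 0.217 [0.0137 to 0.421] in the Ngn3-negative cells. Syt16, at chr12:73997761-74267916 on the plus strand, had 2.43 [1.58 to 3.28], 1.44 [1.03 to 1.86] and 0.159 [0 to 0.319] in the same order. For both genes the GIP-GFP value was the highest with all models counted, but its interval overlapped that of Ngn3-TOMATO, and both lay above Ngn3-negative. For Syt14 the Ngn3-TOMATO level exceeded the Ngn3-negative level by a log2 ratio of 2.18 [1.86 to 2.50]. For Syt16 the difference was 1.08 [0.76 to 1.39], an interval that reaches below 2-fold.

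Syt14 rested mainly on the model uc007edu.1, which held 100%, 94.3% and 86.4% of its level in the GIP-GFP, Ngn3-TOMATO and Ngn3-negative cells. That model shares no transcript end within 5 bases with the annotated transcript it was matched to. Without it the log2 ratio to Ngn3-negative was -0.04 for GIP-GFP and 0.29 for Ngn3-TOMATO. For Syt16 the model uc007nwu.1 held 85.4%, 63.7% and 33.3%, with 0.0716 kb of aligned read bases behind the last share.

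Syt4 and Syt11 are the pair with a substituted C2A domain, and both are known to restrain exocytosis or membrane uptake in neurons or endocrine cells. Syt4, on chromosome 18 (minus strand, 31437808 to 31447415), had a level of 1.24 [0.829 to 1.65] in GIP-GFP and 0.175 [0.0714 to 0.278] in Ngn3-TOMATO, and was listed at 0 in Ngn3-negative. It was the only one of the 10 with a level above 0 in both reporter-positive libraries that was listed at 0 in the third. Its GIP-GFP level was above that of Ngn3-TOMATO with no overlap of the intervals, at a log2 ratio of 0.93 [0.64 to 1.22].

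Syt11, at chr3:88744701-88772990 on the minus strand, had a level of 33.0 [16.5 to 49.5] in the GIP-GFP cells, 16.9 [16.0 to 17.8] in the Ngn3-TOMATO cells and 0.928 [0.461 to 1.40] in the Ngn3-negative cells. In each library it came after Syt5, Syt7 and Syt13 in level. The log2 ratio to Ngn3-negative was 3.21 [2.85 to 3.57] for Ngn3-TOMATO and 4.14 [3.35 to 4.92] for GIP-GFP. With models of status OK only these ratios were 3.57 and 3.51, so their order turned. The wide GIP-GFP interval comes from the model uc008pwk.1, which has the status LOWDATA in every library and carries 16.8 of the GIP-GFP level, 0 of the Ngn3-TOMATO level and 0.421 of the Ngn3-negative level. The near-equal model uc008pwl.1, with status OK, had 16.2, 16.9 and 0.507. Without the LOWDATA model the log2 ratio of the reporter-positive libraries (GIP-GFP over Ngn3-TOMATO) was -0.05 in place of 0.93 [0.22 to 1.63], so no direction between the reporter-positive libraries is given for Syt11.

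Syt17, known as B/K protein, a member without a transmembrane segment that is found at the Golgi, lies on the minus strand at chr7:118381856-118448219. Its level was 0.560 [0.112 to 1.01] in the GIP-GFP cells, 1.90 [1.24 to 2.55] in the Ngn3-TOMATO cells and 0.0596 [0 to 0.223] in the Ngn3-negative cells. Ngn3-TOMATO was the highest with no overlap, at a log2 ratio to Ngn3-negative of 1.45 [1.05 to 1.85]. In GIP-GFP the whole level was assigned to uc009jjv.1 and in Ngn3-TOMATO 91.9% to uc009jjt.1, which starts downstream of it. The reads behind this are few, 0.281 kb and 1.63 kb.

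Against Ngn3-negative, 8 of the 10 genes reached 1 in either library of the Ngn3-TOMATO comparison, and all 8 were higher in Ngn3-TOMATO by 2-fold or more. The intervals of Syt1, at a log2 ratio of 1.15 [0.92 to 1.37], and of Syt16 reach below 2-fold. Of the 13434 genes compared, 19.3% were higher by 2-fold or more and 10% lower by as much. Syt5, Syt7, Syt11, Syt13 and Syt14 were at least 4-fold higher, against 8.86% of all genes. Syt14 was at a log2 ratio of 0.29 with only models that share a transcript end. The median log2 ratio of the 8 was 2.68 and that of all genes compared 0.03. Only Syt5, Syt7 and Syt13 reached 1 in the Ngn3-negative library as well. The others passed the filter through the library in which they were high, so the count of 8 describes these genes and lends no weight to the difference. Over all 10 genes with no filter the median was 1.81.

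The comparison of GIP-GFP with Ngn3-negative gave a like picture. There 7 of the 10 reached 1, and all 7 were at least 2-fold higher in GIP-GFP, beside 21.1% of 13459 genes higher by 2-fold or more and 13.8% lower by as much. Syt4, Syt11, Syt14 and Syt16 passed the filter through GIP-GFP alone, so the count of 7 likewise lends no weight to the difference. The 5 at least 4-fold higher were the same genes as in Ngn3-TOMATO, beside 10.1% of all genes. Of these, Syt14 was at -0.04 with only models that share a transcript end. The log2 ratio was 2.65 [2.28 to 3.02] for Syt14 and 1.56 [1.15 to 1.97] for Syt16, while Syt1 and Syt17 were below 1 in both libraries. The median of the 7 was 3.41 (all genes compared, 0.07), and 2.11 over all 10 with no filter. In the Ngn3-TOMATO comparison 65.8% of all genes past 2-fold were higher in Ngn3-TOMATO, and 53.1% after scaling each library to the same total, a step that moved the median of all genes from 0.03 to -0.20. The direction of every one of these synaptotagmin ratios was the same under that scaling.

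**Figure D2:**
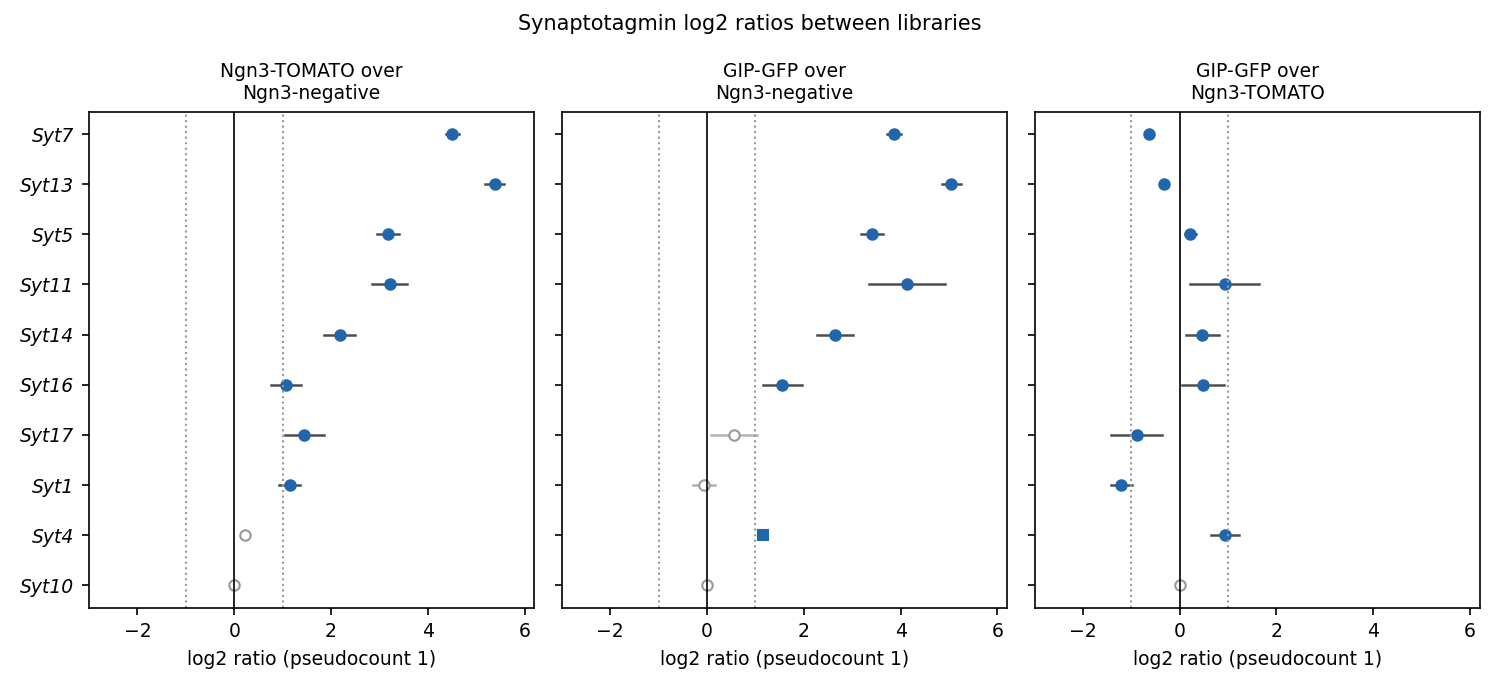
Log2 ratio (pseudocount 1) of each of the 10 genes in the 3 comparisons, with 95% counting intervals as bars; dotted lines mark 2-fold. Filled points passed the filter of 1, open points did not, and the square marks Syt4, whose Ngn3-negative value is listed at 0; ratios against Ngn3-negative reach 5.38 (Syt13) while those between the reporter-positive libraries lie between -1.21 (Syt1) and 0.93.

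**Figure D3:**
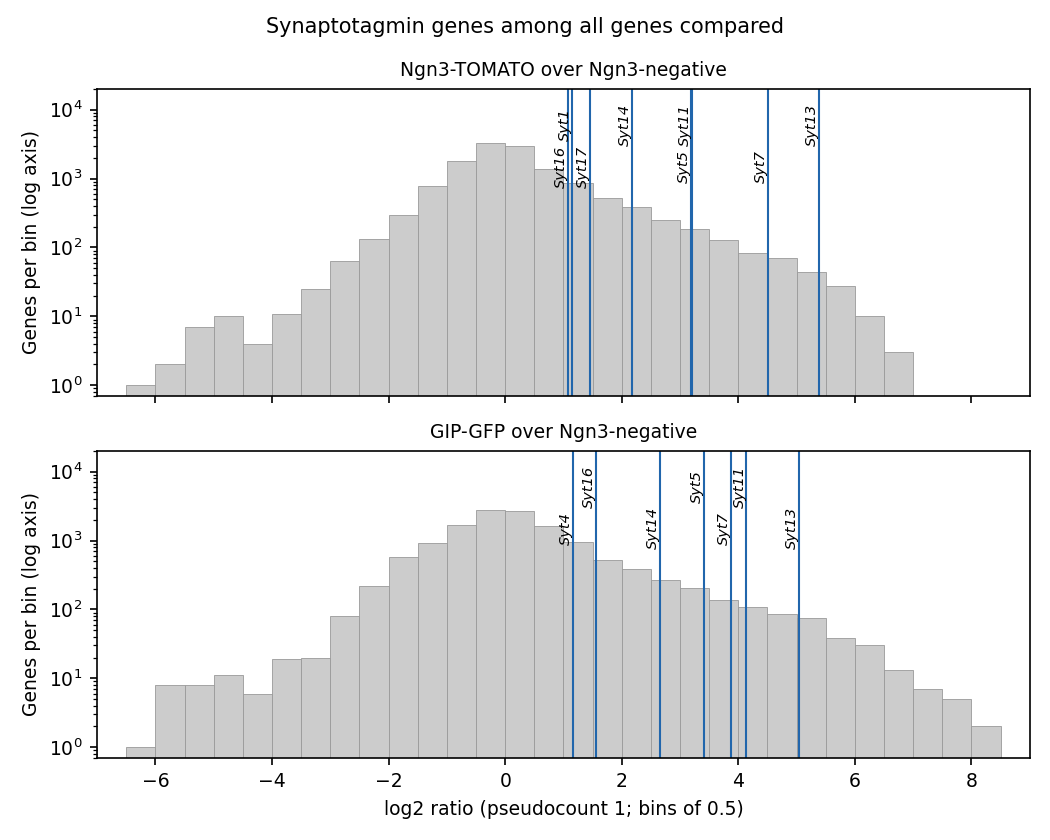
Number of genes (log axis) by log2 ratio to Ngn3-negative in bins of 0.5 for Ngn3-TOMATO (top) and GIP-GFP (bottom), over 13434 and 13459 genes, with the synaptotagmins that passed the filter as vertical lines. Syt13 lies farthest to the right in both, at 5.38 and 5.04, in bins that hold few genes.

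Between the reporter-positive libraries the differences were smaller. Of the 9 genes at 1 or more, 0 were at least 2-fold higher in GIP-GFP and 1, Syt1, was at least 2-fold lower. The median log2 ratio was 0.22 (0.08 over all genes), and it was -0.05 with the most abundant transcript, with a shared transcript end or with status OK only. Of all 13722 genes compared, 8.05% were higher and 8.77% lower by 2-fold or more, and 2.08% were higher by 4-fold or more. Syt7, Syt13 and Syt17 were lower in GIP-GFP with intervals that leave out 0, Syt17 by a log2 ratio of -0.89 [-1.42 to -0.36]. Syt4, Syt5 and Syt16 were higher in GIP-GFP, Syt16 by 0.49 [0.05 to 0.92]. For Syt14 the log2 ratio was 0.47 [0.12 to 0.82], and -0.33 with only models that share a transcript end, so no direction is given. GIP cells descend from Ngn3-expressing progenitors, and Ngn3-TOMATO held Gip itself at 28040 against 241600 in GIP-GFP and 730.1 in Ngn3-negative, so the Ngn3-TOMATO sort can hold GIP cells too.

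The makeup of the synaptotagmin RNA differed between the reporter-positive libraries and Ngn3-negative. The 10 genes summed to 332.6 in the GIP-GFP cells, 386.2 in the Ngn3-TOMATO cells and 16.4 in the Ngn3-negative cells. Syt5, Syt7 and Syt13 made up 86.8%, 93.2% and 91.0% of these sums. Syt13 held 33.1% in GIP-GFP and 36.0% in Ngn3-TOMATO but 14.5% in Ngn3-negative, whereas Syt5 held 24.8%, 18.3% and 42.1%. Within a library, where no scaling enters, the ratio of Syt7 to Syt13 was 0.872, 1.08 and 2.38, so Syt13 exceeded Syt7 in GIP-GFP alone. Grouped by calcium binding, a grouping made after the values were seen, Syt1, Syt5, Syt7 and Syt10 held 53.7%, 57.5% and 77.2%. Syt13, Syt14 and Syt16 held 35.8%, 37.6% and 16.8%, and Syt4 with Syt11 10.3%, 4.41% and 5.67%. With models of status OK only the last group held 5.52%, 4.4% and 3.18%.

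**Figure D4:**
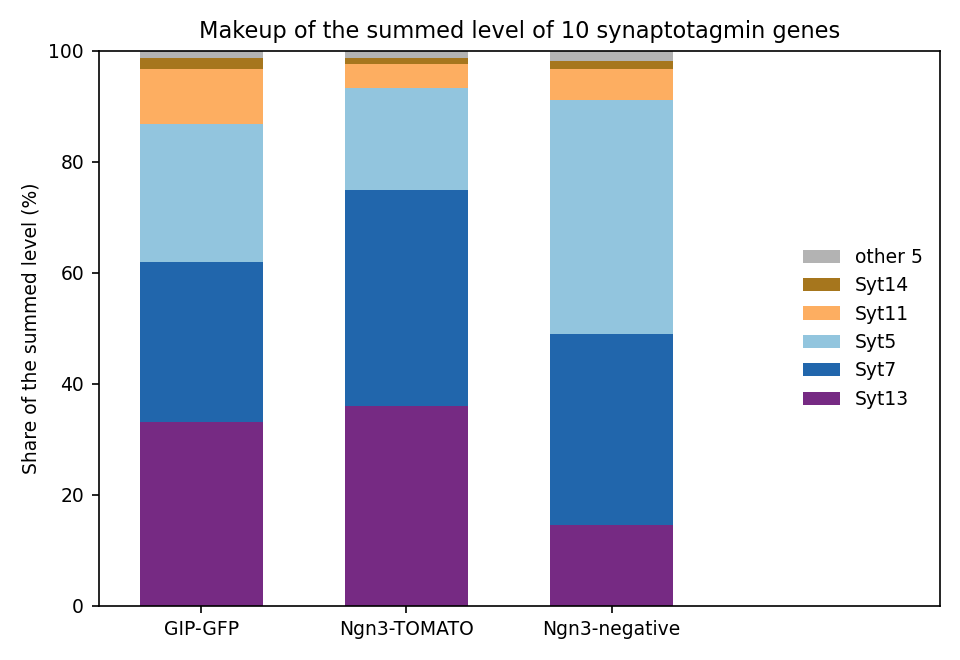
Share (%) of the summed level of the 10 genes held by each gene in the 3 libraries, 1 stacked bar each. Syt13 falls from 33.1% and 36.0% in the reporter-positive libraries to 14.5% in Ngn3-negative, where Syt5 has 42.1%; the grey cap holds the other 5 genes.

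Beside these shares, the level in Ngn3-negative can be set against that in Ngn3-TOMATO gene by gene. It was 1.70% for Syt13, 3.15% for Syt17, 3.76% for Syt7, 4.82% for Syt14, 5.51% for Syt11, 7.23% for Syt1, 9.77% for Syt5 and 11.0% for Syt16. Over 7 enteroendocrine marker genes (Chga, Chgb, Neurod1, Pax6, Isl1, Scg2 and Pcsk1) the same share ran from 1.41% to 2.72% with a median of 1.86%. As point values, Syt13 lay inside that range and the other 7 above it. The Ngn3-negative intervals of Syt1, Syt16 and Syt17 reach 0, and that of Syt14 goes down to 0.0137. For Syt11, 0.421 of the Ngn3-negative level of 0.928 [0.461 to 1.40] came from the LOWDATA model uc008pwk.1. The model with status OK, uc008pwl.1, had 0.507 in Ngn3-negative and 16.85 in Ngn3-TOMATO. The shares of Syt1, Syt11, Syt14, Syt16 and Syt17 can therefore not be placed against the range. What part stray endocrine RNA has in the Ngn3-negative values was not tested.

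The 7 remaining synaptotagmins were low and did not share this pattern as a group. Syt12, a calcium-independent member, had a level of 1.04 [0.583 to 1.5] in the GIP-GFP cells, 1.72 [1.37 to 2.06] in the Ngn3-TOMATO cells and 4.84 [4.17 to 5.51] in the Ngn3-negative cells. It was thus highest in the Ngn3-negative library with no overlap, and its log2 ratio to Ngn3-negative was -1.10 [-1.35 to -0.86] for Ngn3-TOMATO and -1.52 [-1.88 to -1.16] for GIP-GFP. Syt8 was listed at 0 in GIP-GFP, and its Ngn3-TOMATO level of 0.0951 was below the 1.02 of Ngn3-negative. Syt3, a calcium-binding member, had 2.31 in the GIP-GFP cells, 0.887 in the Ngn3-TOMATO cells and 0.201 in the Ngn3-negative cells. Syt2, Syt9 and Syt15 stayed below 1 in all libraries and Syt6 was listed at 0 in all. The 17 genes of the family summed to 336.3, 390.0 and 22.6, of which Syt12 made up 0.309%, 0.440% and 21.4%.

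Promoter windows from RefSeq (GRCm38.p6, the sequence of mm10), each running from 250 bases before to 50 after an annotated start, were found for 5 of the 10 genes, Syt1 with 2 windows and Syt10, Syt11, Syt14 and Syt16 with 1 each. The 250 bases before the start are shown for Syt14 and Syt16, both higher in the reporter-positive libraries than in Ngn3-negative with all models counted. Those of Syt10 are shown as well, so that the pair can be read beside a relative listed at 0. Capitals mark CAGCACC, 7 letters from the core of the site bound by REST, a repressor of neuronal genes, and no other searched motif occurs.
Syt14, chr1:193035776-193036025, minus strand: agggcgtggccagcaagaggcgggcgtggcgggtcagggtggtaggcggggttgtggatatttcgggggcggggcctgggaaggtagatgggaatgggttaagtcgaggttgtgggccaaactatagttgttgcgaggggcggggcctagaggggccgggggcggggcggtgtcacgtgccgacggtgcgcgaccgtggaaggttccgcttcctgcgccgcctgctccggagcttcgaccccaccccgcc
Syt16, chr12:73997527-73997776, plus strand: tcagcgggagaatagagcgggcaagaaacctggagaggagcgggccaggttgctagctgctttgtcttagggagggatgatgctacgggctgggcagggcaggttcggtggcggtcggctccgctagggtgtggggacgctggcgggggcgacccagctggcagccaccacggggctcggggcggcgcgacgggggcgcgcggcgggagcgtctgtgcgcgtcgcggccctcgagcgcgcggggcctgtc
Syt10, chr15:89841861-89842110, minus strand: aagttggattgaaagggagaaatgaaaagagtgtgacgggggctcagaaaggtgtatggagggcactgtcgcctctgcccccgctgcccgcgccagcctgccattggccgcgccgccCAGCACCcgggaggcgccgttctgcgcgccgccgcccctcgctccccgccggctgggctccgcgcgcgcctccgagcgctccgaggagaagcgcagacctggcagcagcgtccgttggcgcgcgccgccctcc
CAGCACC was searched on both strands and occurred in 1 of the 5 genes, Syt10, at position -133 from the start, and in 7.14% of all 32851 windows. CAGATG, the E-box form bound by NEUROG3 and NEUROD1, and TGACGTCA, the cyclic AMP response element, occurred in 0 of the 5 genes, against 17.2% and 1.79% of all windows. The GC content of the whole windows was 71.3% for Syt14, 75.0% for Syt16 and 70.7% for Syt10, above the mean of 53.8% over all windows. It was 53.0% for Syt11, and 56.7% and 44.0% for the 2 windows of Syt1. High GC content was therefore found for the gene listed at 0 as well as for the pair detected in the reporter-positive libraries.

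The genes that work with synaptotagmins were examined from 3 lists. Of 12 synaptotagmin-like and other double C2 genes, 11 could be compared, and 7 were at least 2-fold higher and 1 lower in Ngn3-TOMATO than in Ngn3-negative. Against Ngn3-negative, GIP-GFP had 5 higher and 3 lower, and the median log2 ratio was 1.14 for Ngn3-TOMATO and 0.33 for GIP-GFP. Sytl2, a Rab27 effector on secretory granules, had a level of 8.42 in the GIP-GFP cells, 142.9 in the Ngn3-TOMATO cells and 28.5 in the Ngn3-negative cells. Between the reporter-positive libraries (GIP-GFP over Ngn3-TOMATO) its log2 ratio was -3.93 [-4.15 to -3.71], a larger gap than any of the synaptotagmins showed. The summed goblet, Paneth and tuft cell markers were likewise lowest in GIP-GFP and highest in Ngn3-TOMATO. The part of such cells in the Sytl2 values was not tested. Esyt1, which tethers the endoplasmic reticulum to the cell membrane, had 185.5, 71.6 and 8.79 in the GIP-GFP, Ngn3-TOMATO and Ngn3-negative cells. Doc2b, a calcium-binding soluble protein of exocytosis, had 12.6, 20.98 and 0.349, and Sytl5 had 13.7, 12.3 and 0.760.

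Among 28 SNARE, complexin and other partner genes, 22 could be compared, and 10 were at least 2-fold higher and 0 lower in each reporter-positive library than in Ngn3-negative (median log2 ratio 0.81 for Ngn3-TOMATO and 0.70 for GIP-GFP). Cplx2 and Cplx1, complexins that clamp and then assist SNARE assembly, were highest in GIP-GFP. Cplx2 had 365.8 in the GIP-GFP cells, 120.7 in the Ngn3-TOMATO cells and 3.84 in the Ngn3-negative cells, and Cplx1 111.1, 39.4 and 0.713. Snap25, the plasma membrane SNARE that Syt1 binds, ran the other way between the reporter-positive libraries, with 84.7, 218.1 and 3.17. Vamp2, the vesicle SNARE, had 211.4, 155.6 and 46.6. Vamp8, a widely expressed vesicle SNARE, differed less, with 236.5, 258.2 and 303.4.

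Of 15 vesicle priming genes, 12 could be compared, with 10 at least 2-fold higher and 0 lower in Ngn3-TOMATO than in Ngn3-negative (median log2 ratio 2.30) and 8 and 0 in GIP-GFP (median 1.76). Rab3d, a granule GTPase, had 179.8, 153.7 and 28.1 in the GIP-GFP, Ngn3-TOMATO and Ngn3-negative cells. Rab27a, which recruits the synaptotagmin-like proteins to granules, had 50.7, 80.0 and 14.4. Rab3c differed sharply between the reporter-positive libraries, with 0.581 in GIP-GFP and 58.5 in Ngn3-TOMATO, beside 1.09 in Ngn3-negative. Cadps, which primes dense core granules, had 76.4 in GIP-GFP with an interval of 1.53 to 151.3, 52.3 in Ngn3-TOMATO and 1.27 in Ngn3-negative. Shares of all genes past 2-fold are those given above for each comparison.

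The genes with patterns nearest to the 2 most abundant synaptotagmins were found by the Euclidean distance of log2 levels, centred within each gene, over the 3 libraries and 10449 genes. For Syt7 they were Rbm3os (distance 0.12; 12.1, 19.7 and a listed 0), the calcium channel gene Cacna1h (0.13; levels 43.5, 60.2 and 1.93) and Prodh2 (0.15). For Syt13 they were the imprinted gene Peg3 (0.09; 92.8, 121.4 and 2.11), Yars (0.16) and the prohormone convertase inhibitor gene Pcsk1n (0.20; 97.1, 105.3 and 1.47). Yars, a tRNA synthetase gene that every cell uses, was listed at 0 in Ngn3-negative beside 36.2 and 39.3, and is 1 of 59 genes listed at 0 there with 5 or more in both other libraries. A listed 0, as for Rbm3os and Syt4 in Ngn3-negative, may thus be a failed estimate. The only Syt4 model had status OK in Ngn3-negative, however, and unlike Yars it was also low in Ngn3-TOMATO, at 0.175. With 3 libraries such distances describe these pools only.

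Marker genes checked the labels. The enteroendocrine list summed to 12140 in the GIP-GFP cells, 23290 in the Ngn3-TOMATO cells and 364 in the Ngn3-negative cells. Chga (322.6 and 8843 in GIP-GFP and Ngn3-TOMATO) and Chgb (7673 and 12110) carry most of that order, while Pax6 (503.6 and 114.1), Isl1 (774.1 and 148.0) and Scg2 (2042 and 887.4) were higher in GIP-GFP. Enteric neurons also express synaptotagmins, and 8 of their marker genes summed to 7.51, 12.1 and 1.83, with Phox2a at 0 in all libraries, Hand2 at 0 in both reporter-positive libraries and Nos1 at 0 in Ngn3-TOMATO. In Ngn3-negative Hand2 was above 0 and Phox2a, Nos1 and Stmn2 were at 0. Tubb3 (5.05, 6.03 and 0.492), Elavl3 (1.38, 1.00 and 0.0159) and Elavl4 (0.388, 1.18 and 0.0246) were higher in both reporter-positive libraries than in Ngn3-negative. Chat (0.4135, 3.10 and 1.21) was higher than in Ngn3-negative in Ngn3-TOMATO but lower in GIP-GFP. For Syt1, whose levels lie within the range of these markers, the part of neuronal RNA was not tested. The 4 glial markers summed to 3.72, 3.58 and 1.60 (Sox10 at 0 in all), 9 blood cell markers to 290.7, 50.3 and 125.8, highest in GIP-GFP, and 5 enterocyte markers to 4783, 3889 and 19980. Goblet cell markers (4 genes) summed to 4552, 160400 and 28350, Paneth cell markers (4 genes) to 2147, 25680 and 4548, and tuft cell markers (4 genes) to 13.4, 96.2 and 48.6. Goblet and Paneth cell RNA was thus highest in Ngn3-TOMATO, and Neurog3 itself was at 4.48, 24.0 and 13.9. Its part in the synaptotagmin ratios was not tested.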

How the data were processed

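Polyadenylated RNA of 3 pooled libraries, 1 per group, was analysed. Per the submitters' processing notes, FastQC, TopHat 1.5.0, Cufflinks and build mm10 were used. Per the file headers, the authors deposited FPKM with lower and upper limits, coverage (mean read depth) and a status for each of 59120 UCSC transcript models. No source used here gives the library term of the FPKM. Read bases (coverage times length) came to 592.1 Mb for the GIP-GFP, 1380 Mb for the Ngn3-TOMATO and 1030 Mb for the Ngn3-negative cells.

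Models were matched without strand to GENCODE M21, by a shared end within 5 bases or by overlap of spans of at least 0.5 with a spliced length ratio of at most 4, and 51529 received a symbol. FPKM of models of 200 bases or more were summed per gene and divided by 8146, so that the mean library total was 1000000. Mitochondrial genes and 4 genes with HIDATA models were left out. Genes at 1 or more in at least 1 of 2 libraries were compared, with a pseudocount of 1. Intervals took the deposited limits as 2 standard errors and used 1.96. The calculation of ratios was tested on simulated data, for genes with higher Ngn3-negative levels than any of the listed synaptotagmins. That test does not cover levels as low as theirs. Python 3.11.15, pandas 2.3.3, numpy 2.4.6 and matplotlib 3.10.9 were used.

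The members and lists were chosen with earlier results of these data known. Of each related list, at most 4 genes with the highest values were named among those past 4-fold against Ngn3-negative and at 10 or more; Vamp8 was named after its values were seen. Nearest genes had 10 or more in their highest library. Alternatives concerned the pseudocount, filter, scaling, transcript choice and status. A further marker gene of enteric neurons is not reported here.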

Additional observations from a re-analysis of the deposited data

How the results depend on the processing

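No paired analysis was possible because each group is 1 pooled library, and for the same reason no replicate could be left out. Over 12 alternatives the log2 ratios of Syt5, Syt7, Syt11 and Syt13 to Ngn3-negative kept their direction and stayed past 2-fold. Of 288 values of single genes under an alternative, the direction turned in 4. Syt14 in GIP-GFP against Ngn3-negative was at -0.04 when only models with a shared transcript end were used. In GIP-GFP against Ngn3-TOMATO Syt14 was at -0.33 under the same setting, and Syt11 at -0.05 with the most abundant transcript and with status OK only. The median of the latter comparison was -0.05 under these 3 settings.

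In Ngn3-TOMATO against Ngn3-negative the median log2 ratio was 3.75 with a pseudocount of 0.1, 1.37 with 5, 1.81 with no filter, 3.86 with a filter of 5, and 3.18 with the most abundant transcript or a shared transcript end. There 4 genes were at least 2-fold higher with a pseudocount of 5, 4 with a filter of 5, and 7 with the most abundant transcript or a shared transcript end. In GIP-GFP against Ngn3-negative the median was 4.06 with a pseudocount of 0.1, 2.68 with 5, 2.11 with no filter and 3.87 with a filter of 5. In that comparison 5 genes were at least 2-fold higher with a pseudocount of 5 or a filter of 5, and 6 with a shared transcript end. In GIP-GFP against Ngn3-TOMATO 1 gene was at least 2-fold higher and 2 lower with a pseudocount of 0.1, 0 lower with a pseudocount of 5 or a filter of 5, and 2 lower with the most abundant transcript.

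A pseudocount of 5 also lowered the counts over all genes, from 2587 to 1500 higher in Ngn3-TOMATO and from 2834 to 1784 higher in GIP-GFP against Ngn3-negative, and from 1104 to 603 higher and 1204 to 674 lower in GIP-GFP against Ngn3-TOMATO. A larger pseudocount shrinks ratios of low genes by construction. Syt1, Syt4, Syt16 and Syt17 lie near the limit of detection, and their folds depend on that choice.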
